A study of Mus musculus with 12 samples.

Results

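Cyclins and cyclin-dependent kinases (CDKs) are the regulatory and catalytic subunits of the kinases that drive the cell cycle and that phosphorylate RNA polymerase II. The rule for the genes described here uses their names and no measured value. It takes gene rows of the count table whose symbol was *Ccn* followed by 1 letter and 1 digit, or *Cdk* followed by a number. This rule found 34 of 20620 gene rows, of which 16 were cyclin genes and 18 were CDK genes. Cyclin genes whose symbols end in a letter, such as *Ccnc* and *Ccnh*, fall outside the rule and are counted with the other genes of the pathway.

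Testes of C57BL/6 mice were taken at postnatal day 16 (P16), when the first wave of spermatocytes is in meiotic prophase, and their RNA and ribosome footprints were sequenced. The *Mael*-/- mice lacked Maelstrom, a protein needed for the piRNAs that silence transposons, and the controls were *Mael*+/- and so carried 1 mutant copy as well. Every testis extract of both genotypes was made in cycloheximide, which holds ribosomes on the mRNA, and was divided into an RNA library and a footprint library. There were 3 extracts per genotype and 12 libraries in all, and because the labels do not say that replicates came from separate animals, p-values describe the spread between these libraries, which may be partly technical.

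A CDK is inactive until it binds a cyclin, and most cell cycle cyclins are made and destroyed once per cycle, so that the cyclin present sets which step the kinase drives. D cyclins with *Cdk4* or *Cdk6* and E cyclins with *Cdk2* take cells through G1 into S phase, whereas *Ccna2*, *Ccnb1* and *Ccnb2* with *Cdk2* or *Cdk1* act in S phase and mitosis. Male germ cells add cyclins of their own: *Ccnb3* is made in early meiotic prophase, and *Ccna1* is made from the late pachytene stage and is needed for the meiotic divisions. Another branch of the family (*Ccnt1*, *Ccnt2*, *Cdk7*, *Cdk9*, *Cdk12* and others) works in transcription, although *Cdk7* also activates other CDKs.

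Gene counts summed to 13697267 to 27462358 per RNA library and to 7609932 to 13233565 per footprint library. The share of gene counts held by the 34 genes was 0.285 to 0.295% over RNA libraries and 0.234 to 0.244% over footprint libraries. *Mael* itself had 3800 to 5045 counts in *Mael*+/- RNA libraries and 0 to 2 in *Mael*-/- RNA libraries, as the labels require. Markers of spermatogonia, Sertoli, Leydig and peritubular cells and of macrophages were detected in every group. The summed RNA level of 3 peritubular markers was 848 to 890 CPM in *Mael*+/- and 950 to 996 CPM in *Mael*-/-. *Mael*+/- extract 1 stood apart from the other 5. The summed RNA level of 12 pachytene spermatocyte markers was 849 CPM (counts per 1000000 gene counts, scaled with TMM factors) in that extract, 306 and 331 in the other *Mael*+/- extracts, and 247 to 283 in *Mael*-/-. All 12 markers were highest there in RNA and 11 of 12 in footprints, where *Adam3* had 0 counts in every *Mael*-/- library. Fold changes of members that moved clearly when this extract was left out are given both ways, and the plot of fold changes shows both for every tested member.

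The genes covered a wide range of levels (the plot of levels per kilobase). On the scale of CPM per kilobase of transcript, *Cdk4* had the highest mean RNA level of the 34 in both genotypes, at 140 in *Mael*+/- and 141 in *Mael*-/-. *Cdk16*, a kinase needed in spermatogenesis, followed at 75.8 in *Mael*+/-, and *Cdk2*, which is needed for meiosis in males, at 74.6. Those neighbours in the order differed by less than their spread (SD 2.15 and 2.19 in *Mael*+/-). At the other end, *Cdk15* was nearly silent with 3 to 8 counts per RNA library and was too low to test. *Ccna1*, *Cdk18* and *Cdk6* had mean RNA levels of 0.67, 0.77 and 2.55 CPM per kilobase in *Mael*+/- testes. The low place of *Cdk6* rests on its 11525 annotated exon bases, since its mean was 29.4 CPM before division by length.

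**Figure D1:**
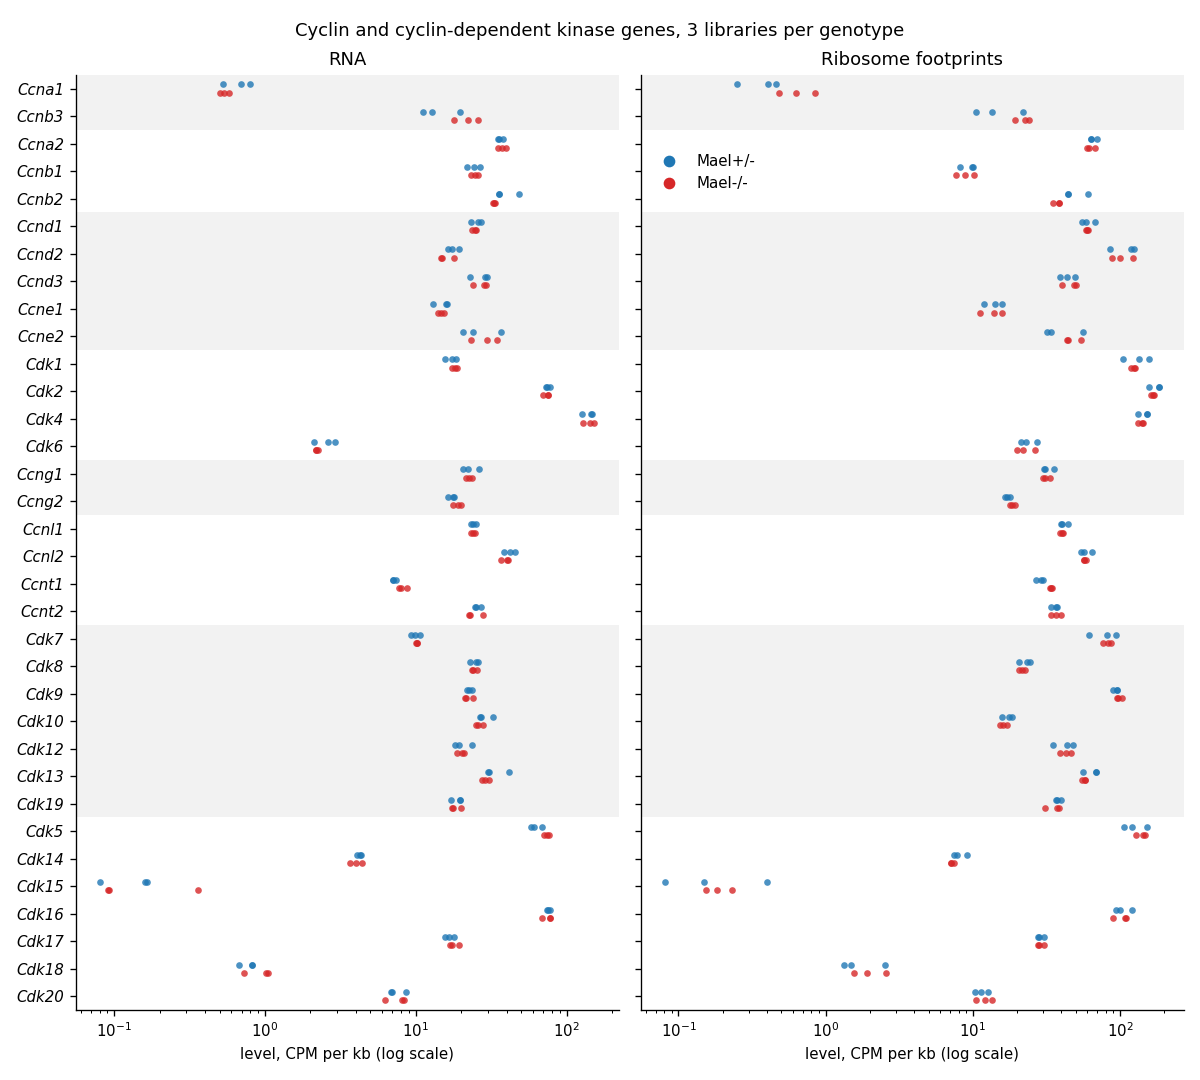
Level of each of the 34 genes in CPM per kilobase on a log axis, per transcript length for RNA (left) and per coding length for footprints (right), with 1 point per library (blue *Mael*+/-, red *Mael*-/-) and shading by role. *Cdk4* lies highest in RNA, *Ccna1* and *Cdk15* lie lowest in both assays, and points of the 2 genotypes lie close together for most genes.

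Of the germ cell cyclins, *Ccna1* (chromosome 3, 55045469 to 55055055, GRCm38) was barely detected at this age. Its RNA libraries held 29, 30 and 22 counts in *Mael*+/- and 11, 17 and 25 in *Mael*-/-, which is 1.26, 1.10 and 0.83 CPM against 0.80, 0.84 and 0.91. Footprint libraries held 3, 4 and 6 counts in *Mael*+/- and 8, 8 and 9 in *Mael*-/-, too few to test. RNA levels overlapped between the genotypes, whereas in footprints the *Mael*-/- libraries (0.61, 0.80 and 1.07 CPM) lay above the *Mael*+/- libraries (0.32, 0.52 and 0.59 CPM), at counts that allow no test. The log2 fold change of *Mael*-/- over *Mael*+/- in RNA was -0.31 (SE 0.29, edgeR adjusted p 0.983), with a 95% interval from -0.96 to 0.35, and -0.17 without *Mael*+/- extract 1. The somatic and germ line A cyclin *Ccna2* exceeded *Ccna1* in RNA level per kilobase by 44.1 to 70.7-fold over the 6 RNA libraries, and in footprint level per kilobase by 79.8 to 252-fold over the 6 footprint libraries.

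*Ccnb3* (chromosome X, 6979652 to 7041619), which activates *Cdk1* in meiosis, was the germ cell cyclin with substantial counts. Its RNA level was 90.2, 58.5 and 51.2 CPM in *Mael*+/- replicates 1 to 3 and 118, 102 and 81.6 CPM in *Mael*-/-. Its footprint level was 91.8, 56.9 and 44.3 CPM in *Mael*+/- and 94.5, 101 and 81.2 CPM in *Mael*-/-. In both assays *Mael*+/- replicate 1 lay within the *Mael*-/- values and the other 2 *Mael*+/- libraries lay below all *Mael*-/- libraries. The log2 fold change was 0.59 in RNA (SE 0.20, edgeR p 0.0162 unadjusted and 0.849 adjusted) and 0.52 in footprints (SE 0.22, p 0.0354 unadjusted and 0.998 adjusted), so that neither passed after adjustment. It was the member with the largest fold change in each assay.

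The result for *Ccnb3* turned on *Mael*+/- extract 1. With the libraries of that extract left out, the log2 fold change was 0.87 in RNA (SE 0.13, edgeR adjusted p 0.00449) and 0.87 in footprints (SE 0.13, edgeR adjusted p 0.0273), and *Ccnb3* was the only member called in either assay. The extract was singled out after the data were seen. It held the only *Mael*+/- values of *Ccnb3* within the *Mael*-/- range, so leaving it out was bound to separate the genotypes. These p-values are therefore no independent support for a rise. Leaving out any other single library called 0 members in either assay. Among all genes tested without that extract, 0.397% were called in RNA and 0.125% in footprints. Extract 1 was also the highest *Mael*+/- extract in summed RNA level of 8 early meiotic prophase markers, at 1307 CPM against 633 and 667, with 653 to 901 CPM in *Mael*-/-. In footprints the sum was 2104.5 CPM against 873 and 961, with 967 to 1059 CPM in *Mael*-/-. Of those 8 markers, 6 were highest in extract 1 in each assay, and none was at 0 in any group. The part of these cells in the *Ccnb3* values was not tested, and in bulk tissue fewer cells of a type cannot be told apart from less RNA per cell.

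The mitotic cyclins followed. *Ccna2* (chromosome 3, 36564865 to 36573038) had an RNA level of 118, 128 and 121 CPM in *Mael*+/- and 119, 127 and 134 CPM in *Mael*-/-, and a footprint level of 80.5, 80.8 and 88.3 CPM against 78.4, 75.9 and 85.2. The genotypes overlapped in both assays. Its log2 fold change was 0.05 in RNA (SE 0.08) and -0.06 in footprints (SE 0.09), and both 95% intervals lay within 0.5 of 0.

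*Ccnb1* (chromosome 13, 100778739 to 100786486), the main partner of *Cdk1* in mitosis, had an RNA level of 50.4, 61.5 and 56.7 CPM in *Mael*+/- and 53.8, 57.6 and 60.1 CPM in *Mael*-/-. Its footprint level was far lower, at 10.5, 12.9 and 12.7 CPM against 13.3, 9.88 and 11.5. Again the genotypes overlapped in both assays. The log2 fold change was 0.03 in RNA (SE 0.10) and -0.05 in footprints (SE 0.17). Most of the coding sequence of *Ccnb1* recurs in pseudogenes, as described below for the footprints, so its levels are uncertain.

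*Ccnb2* (chromosome 9, 70407689 to 70421554), another B cyclin of dividing cells, had its lowest values in the *Mael*-/- libraries. Its RNA level was 75.1, 54.7 and 54.6 CPM in *Mael*+/- and 50.7, 50.3 and 51.7 CPM in *Mael*-/-. Its footprint level was 72.9, 53.0 and 53.0 CPM in *Mael*+/- and 45.8, 41.9 and 46.0 CPM in *Mael*-/-. Every *Mael*-/- library lay below every *Mael*+/- library of its assay, although by little in RNA once extract 1 is set aside. The log2 fold change was -0.27 in RNA (SE 0.13, edgeR p 0.0635 unadjusted and 0.938 adjusted) and -0.42 in footprints (SE 0.13, p 0.0101 unadjusted and 0.974 adjusted). Without *Mael*+/- extract 1 it was -0.10 in RNA (unadjusted p 0.300) and -0.25 in footprints (unadjusted p 0.0286). *Ccnb2* was the only member lower without overlap in both assays, a pattern held by 1.40% of all genes tested in both. The pachytene marker sum was also lower in every *Mael*-/- RNA library than in any *Mael*+/- RNA library, while in footprints it was 292 to 1004 CPM against 254 to 297 CPM. Its part in the *Ccnb2* values was not tested.

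**Figure D2:**
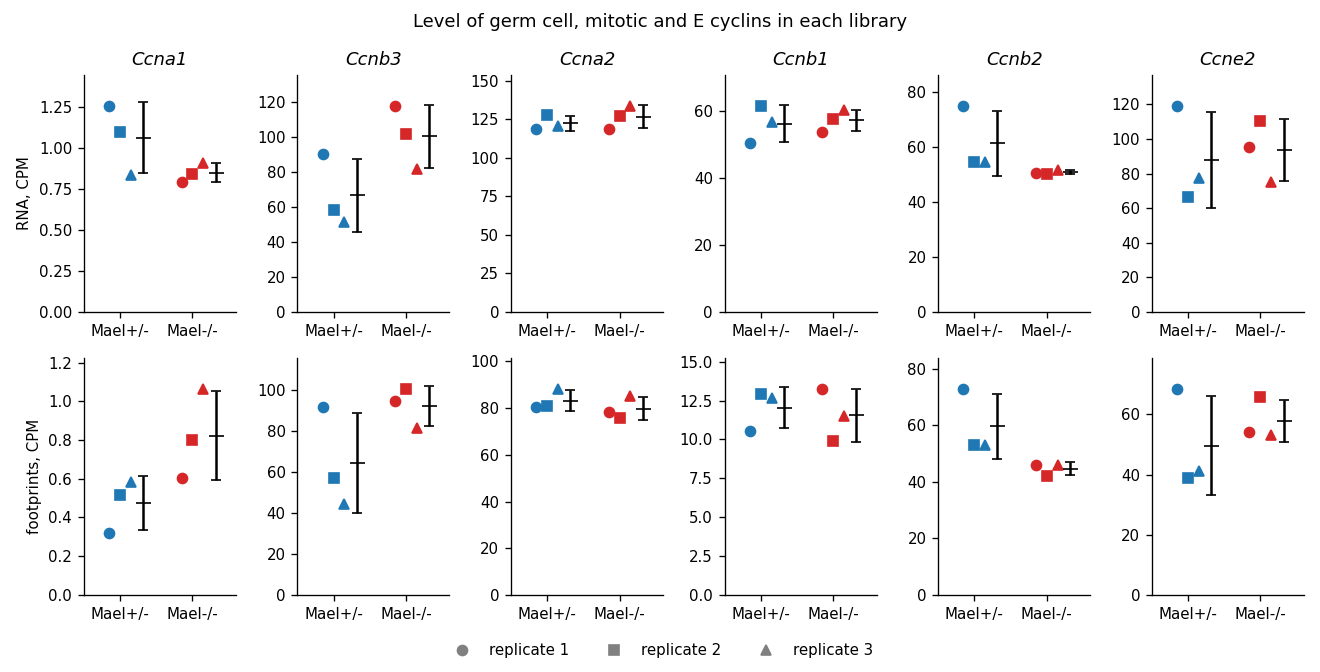
CPM of *Ccna1*, *Ccnb3*, *Ccna2*, *Ccnb1*, *Ccnb2* and *Ccne2* in every library, RNA above and footprints below, with symbols for replicates 1 to 3 and a black bar for the mean ± SD of the 3 libraries; each axis starts at 0. *Mael*+/- replicate 1 (circle) lies above the other 2 *Mael*+/- libraries for *Ccnb3*, *Ccnb2* and *Ccne2*, and *Ccna2* and *Ccnb1* overlap between genotypes.

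Germ cell and mitotic cyclins were next compared within each library. The mean log2 CPM of *Ccna1* and *Ccnb3* minus that of *Ccna2*, *Ccnb1* and *Ccnb2* was -3.17 ± 0.31 in *Mael*+/- RNA and -2.94 ± 0.15 in *Mael*-/- RNA (SD, n = 3). The difference, 0.22, was smaller than the spread in *Mael*+/-, and it combined ratios of opposite sign. The log2 ratio of *Ccna1* to *Ccna2* was 0.34 lower in *Mael*-/- RNA, at -7.17 against -6.84, and that of *Ccnb3* to *Ccnb1* and *Ccnb2* was 0.73 higher, at 0.88 against 0.15. In footprints the mean difference between germ cell and mitotic cyclins was -2.79 ± 0.08 in *Mael*+/- and -1.96 ± 0.23 in *Mael*-/- (SD, n = 3), which includes the 3 to 9 counts of *Ccna1*.

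The ratio of *Ccnb3* to *Ccnb2* was taken next (the plot of cyclin ratios). *Ccnb2* is grouped here as mitotic, but like the pachytene marker sum it was highest in *Mael*+/- extract 1 in both assays. The ratio therefore does not set meiotic cells against mitotic ones. This pair was chosen after its values were seen. It joins the member with the highest log2 fold change in each assay to the one with the lowest in footprints. The choice therefore favored a separation of the genotypes, which is no test. The log2 ratio of CPM in RNA was 0.26, 0.10 and -0.09 in *Mael*+/- and 1.22, 1.01 and 0.66 in *Mael*-/-. In footprints it was 0.33, 0.10 and -0.26 in *Mael*+/- and 1.05, 1.26 and 0.82 in *Mael*-/-. The genotypes did not overlap in either assay. Both genes were higher in extract 1 than in the other *Mael*+/- extracts in each assay, which a ratio partly cancels. The mean was 0.87 higher in *Mael*-/- RNA and 0.98 higher in *Mael*-/- footprints. The ratio of *Ccnb3* to *Ccna2*, by contrast, overlapped between genotypes in both assays, with means of -0.92 and -0.35 in RNA and of -0.44 and 0.20 in footprints for *Mael*+/- and *Mael*-/-.

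**Figure D3:**
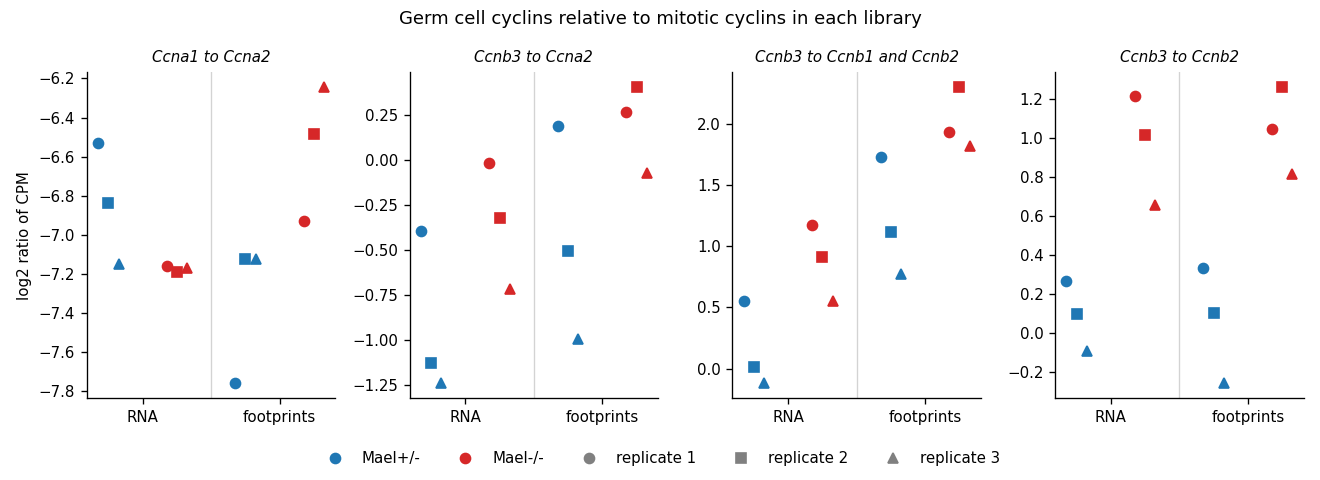
Log2 ratio of CPM of germ cell to mitotic cyclins in every library, with RNA and footprints side by side in each panel, color for genotype and symbol for replicate. In the right panel all *Mael*-/- points for *Ccnb3* to *Ccnb2* (0.66 to 1.26) lie above all *Mael*+/- points (-0.26 to 0.33), while the points for *Ccnb3* to *Ccna2* overlap. The pair in the right panel was picked for its values once these were known.

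The G1 cyclins showed no difference that passed the test. *Ccnd1* (chromosome 7, 144929931 to 144939831) had an RNA level of 87.0, 103 and 96.8 CPM in *Mael*+/- and 89.6, 93.6 and 94.5 CPM in *Mael*-/-. *Ccnd2* (chromosome 6, 127125708 to 127151048), the D cyclin of spermatogonia entering differentiation, had 95.1, 112 and 100 CPM against 86.6, 103 and 84.3, and *Ccnd3* (chromosome 17, 47505051 to 47599689) had 51.9, 65.1 and 66.6 CPM against 54.5, 63.7 and 66.4. The genotypes overlapped for all 3 genes. Their log2 fold changes in RNA were -0.04 (SE 0.09), -0.16 (SE 0.11) and 0.01 (SE 0.12).

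In footprints *Ccnd1* was at 52.8, 55.6 and 64.4 CPM in *Mael*+/- and 55.8, 56.9 and 57.8 CPM in *Mael*-/-. *Ccnd2* was at 74.3, 103 and 109 CPM against 76.6, 106 and 87.0, and *Ccnd3* at 34.4, 38.5 and 43.7 CPM against 35.6, 44.3 and 43.0. The D cyclins again overlapped, with log2 fold changes of -0.02, -0.09 and 0.07, and *Ccnd2* was at -0.24 without *Mael*+/- extract 1. Within the family the order of levels per kilobase depended on the assay: the ratio of *Ccnd2* to *Ccnd1* was 0.582 to 0.719 in the RNA libraries and 1.505 to 2.04 in the footprint libraries. The order in RNA rests on annotated exon lengths, 5772 bases for *Ccnd2* and 3768 for *Ccnd1*. Their mean RNA levels before division by length were 102 and 95.5 CPM in *Mael*+/- and 91.3 and 92.6 CPM in *Mael*-/-.

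*Ccne1* (chromosome 7, 38097984 to 38107490) had an RNA level of 31.5, 30.8 and 25.4 CPM in *Mael*+/- and 27.4, 29.9 and 28.6 CPM in *Mael*-/-. Its footprint level was 19.2, 17.4 and 14.6 CPM against 17.2, 19.4 and 13.7. Its log2 fold change was -0.03 in RNA (SE 0.11) and -0.02 in footprints (SE 0.16), with overlap in both.

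*Ccne2* (chromosome 4, 11191351 to 11204779), the E cyclin known to act in meiotic prophase of males, varied more. Its RNA level was 119, 66.3 and 77.6 CPM in *Mael*+/- and 95.5, 111 and 74.9 CPM in *Mael*-/-. Footprints of *Ccne2* were at 68.5, 39.0 and 41.2 CPM against 54.2, 65.9 and 53.3. *Mael*+/- extract 1 was the highest of all 6 extracts in both assays. For *Ccne2* the log2 fold change was 0.09 in RNA (SE 0.21, unadjusted p 0.665) and 0.22 in footprints (SE 0.19, unadjusted p 0.285). Without that extract it was 0.38 (unadjusted p 0.0137) and 0.53 (unadjusted p 0.000847), with edgeR adjusted p of 0.538 and 0.203. Exons of *Ints8* on the opposite strand cover 53.8% of the exon bases of *Ccne2*, and whether reads were counted by strand is not stated. The same limit holds for *Ccnd1* (21.7% of exon bases), *Ccnd3* (15.9%) and *Ccna2* (11.2%).

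None of the cell cycle kinases passed the test between genotypes. *Cdk1* (chromosome 10, 69335146 to 69352912), the mitotic kinase, had an RNA level of 80.3, 67.5 and 75.2 CPM in *Mael*+/- and 81.4, 75.3 and 79.8 CPM in *Mael*-/-, and a footprint level of 140, 93.4 and 121 CPM against 113, 105 and 112. *Cdk2* (chromosome 10, 128697939 to 128705051) had 188, 179 and 178 CPM in RNA against 169, 183 and 183, and 192, 164 and 191 CPM in footprints against 177, 170 and 173. Both overlapped in both assays. For *Cdk1* the log2 fold change was 0.09 in RNA (SE 0.09) and -0.10 in footprints (SE 0.13, or 0.04 without *Mael*+/- extract 1), while *Cdk2* was at -0.02 (SE 0.08) and -0.08 (SE 0.10).

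*Cdk4* (chromosome 10, 127063535 to 127067288), the partner of D cyclins, had an RNA level of 181, 207 and 209 CPM in *Mael*+/- and 181, 203 and 216 CPM in *Mael*-/-, and a footprint level of 121, 139 and 139 CPM against 131, 129 and 121. *Cdk6* (chromosome 5, 3343893 to 3531008), the other D cyclin kinase, had 24.4, 33.5 and 30.4 CPM in RNA against 25.1, 25.7 and 25.3, and 22.5, 26.7 and 20.98 CPM in footprints against 19.6, 26.1 and 21.7. Neither gene separated the genotypes. The log2 fold changes were 0.01 and -0.06 for *Cdk4*, and -0.21 (SE 0.13) and -0.06 (SE 0.15) for *Cdk6*. Without *Mael*+/- extract 1 the RNA value of *Cdk6* was -0.33 (unadjusted p 0.0072, edgeR adjusted p 0.415). Per kilobase, *Cdk4* exceeded *Cdk6* by 50.2 to 69.4-fold in RNA but by 5.34 to 7.23-fold in footprints. This contrast rests on the annotated exon lengths, 1420 bases for *Cdk4* and 11525 for *Cdk6*. Before division by length, mean *Mael*+/- levels were 199 and 29.4 CPM in RNA and 133 and 23.4 CPM in footprints.

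The other members act in transcription and splicing or outside the cycle. *Ccnt1* (chromosome 15, 98538690 to 98567736), the cyclin that binds *Cdk9* to release paused RNA polymerase II, had an RNA level of 52.4, 50.1 and 50.2 CPM in *Mael*+/- and 61.9, 56.8 and 54.6 CPM in *Mael*-/-. Footprints of *Ccnt1* were at 61.9, 66.5 and 68.7 CPM in *Mael*+/- and 78.1, 76.3 and 78.8 CPM in *Mael*-/-. All *Mael*-/- libraries lay above all *Mael*+/- libraries in both assays, as for 1% of all genes tested in both, and *Ccnt1* was the only member to do so. For *Ccnt1* the log2 fold change was 0.18 in RNA (SE 0.09, edgeR p 0.0716 unadjusted and 0.947 adjusted) and 0.24 in footprints (SE 0.09, p 0.0225 unadjusted and 0.998 adjusted). It was 0.20 in both assays without *Mael*+/- extract 1.

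*Cdk5* (chromosome 5, 24418228 to 24423564), best known from neurons and activated by proteins that are not cyclins, had an RNA level of 128, 122 and 145 CPM in *Mael*+/- and 149, 155 and 162 CPM in *Mael*-/-. Footprints of *Cdk5* were at 105, 94.1 and 135 CPM in *Mael*+/- and 130, 112 and 125 CPM in *Mael*-/-. The genotypes were separate in RNA and overlapped in footprints. For *Cdk5* the log2 fold change was 0.24 in RNA (SE 0.09, edgeR p 0.0248 unadjusted and 0.862 adjusted) and 0.13 in footprints (SE 0.13, unadjusted p 0.333). The part of the peritubular markers, which were also higher in *Mael*-/- RNA, in the *Ccnt1* and *Cdk5* values was not tested.

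Among the members not given by library, *Ccnl1*, *Ccnl2* and *Ccnt2*, which act in splicing and elongation, had log2 fold changes from -0.10 to 0.00 in RNA, and their footprint values ran from -0.05 to 0.03. *Ccng1*, a target of p53, and *Ccng2* were at -0.03 and 0.13 in RNA, with footprint values of -0.04 and 0.11. The 7 kinases of transcription, *Cdk7* of the factor TFIIH, *Cdk8* and *Cdk19* of Mediator, *Cdk9*, *Cdk10*, *Cdk12* and *Cdk13*, ranged from -0.23 to 0.02 in RNA, with footprint values of -0.18 to 0.07, with the lowest value in each assay for *Cdk13*. Without *Mael*+/- extract 1 *Cdk13* was at -0.07 in RNA and -0.12 in footprints, and *Cdk10*, at -0.18, was then the lowest of them in RNA. Of the remaining kinases that were tested other than *Cdk5*, the values ran from -0.07 (*Cdk14*) to 0.26 (*Cdk18*, 2.36 and 2.83 CPM on average) in RNA, and -0.17 (*Cdk14*) was the lowest and 0.15 (*Cdk18*) the highest in footprints. *Cdk14* was lower without overlap in footprints alone. In footprints without *Mael*+/- extract 1, *Cdk18* was at 0.01 and *Cdk7* at 0.21 rather than 0.07.

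Counted together, 33 members passed the filter on low counts in RNA and 32 in footprints. At an adjusted p of 0.05 edgeR called 0 of 33 in RNA, where 0.116% of 14685 genes were called, and 0 of 32 in footprints, where 0.0593% of 13500 were called. DESeq2 also called 0 members in each assay. At an unadjusted p under 0.05 there were 2 of 33 in RNA (*Ccnb3* and *Cdk5*, both higher), against 5.41% of all genes (2.13% higher and 3.28% lower), and 3 of 32 in footprints (*Ccnb3* and *Ccnt1* higher, *Ccnb2* lower), against 4.33% (1.54% higher and 2.79% lower). *Ccnb3* was at that limit and higher in both assays, as were 0.625% of all genes tested in both, and no member was lower at that limit in both, against 1.35%. Groups did not overlap for 2 members higher in RNA (4.77% of all genes) and 1 lower (5.67%), and for 1 higher (4.19%) and 2 lower (4.87%) in footprints. Each of these classes held at most 3 members, so that 1 gene more or less changes its share by several percentage points.

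The intervals bounded what these libraries could have missed. The 95% interval of the fold change lay within 1 of 0 on the log2 scale for 32 of 33 members in RNA (88.7% of all genes) and for 32 of 32 in footprints (90.9%), *Ccnb3* in RNA being the exception. It lay within 0.5 of 0 for 27 of 33 (64.9% of all genes) and 27 of 32 (64.0%). The median log2 fold change of the tested members was -0.02 in RNA and -0.03 in footprints, and that of all genes was -0.01 in each. Of the tested members, 15 of 33 were above 0 in RNA and 12 of 32 in footprints, against 47.7% and 47.5% of all genes.

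**Figure D4:**
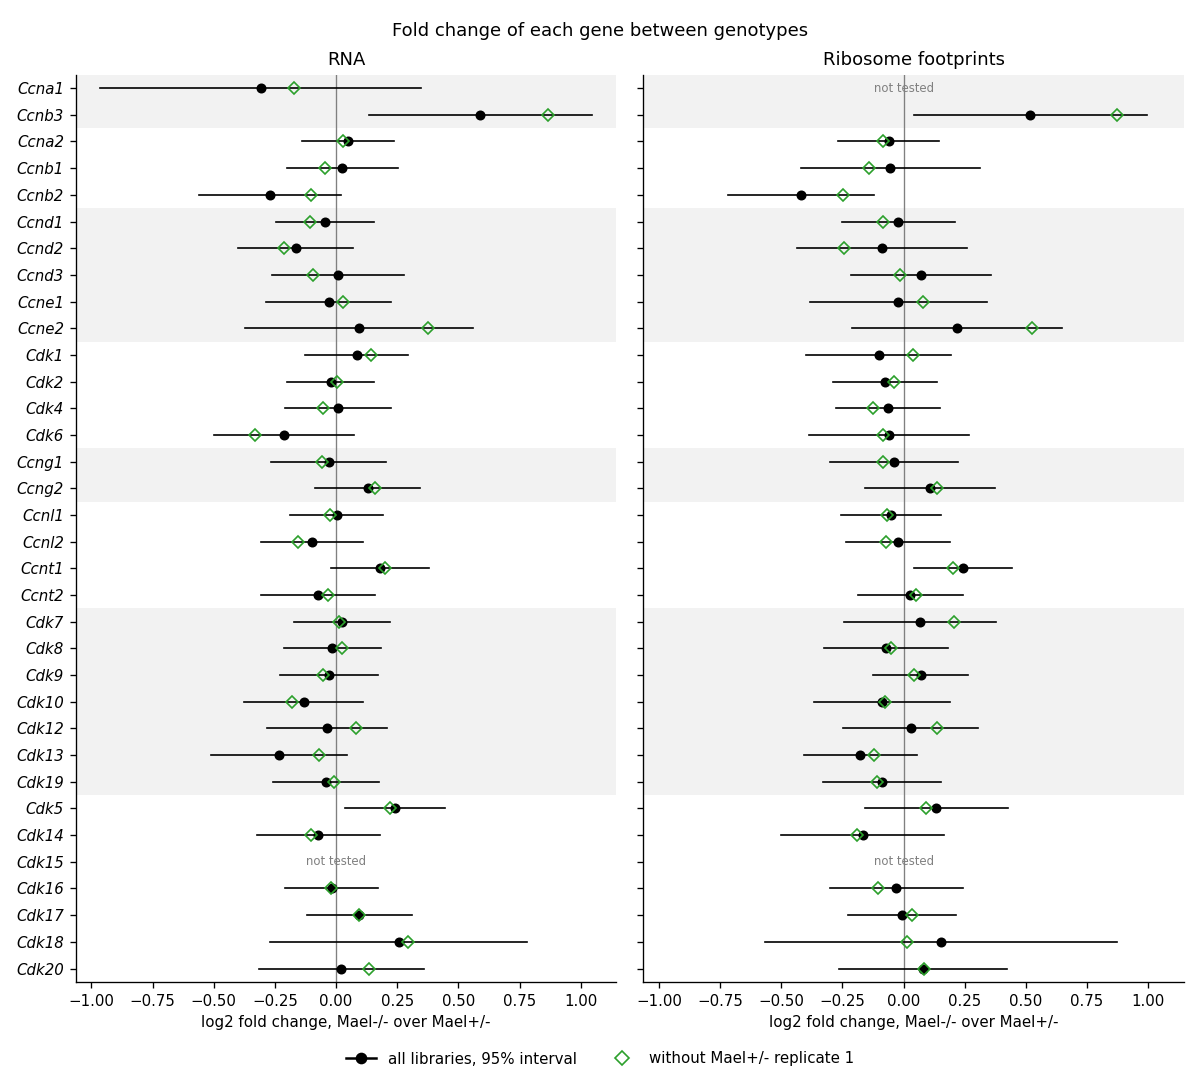
Log2 fold change of *Mael*-/- over *Mael*+/- for each gene with its 95% interval (black), in RNA (left) and footprints (right), and the estimate without *Mael*+/- replicate 1 (green diamonds); shading marks roles. *Ccnb3* lies farthest right in both assays (0.59 and 0.52, or 0.87 without replicate 1), *Ccnb2* farthest left in footprints (-0.42), and most other intervals span 0.

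Whether ribosome occupancy followed the mRNA was tested as a change of translation efficiency between genotypes. Its test called 0 of 32 members at an adjusted p of 0.05 in edgeR and in DESeq2, where 0% of 13448 genes were called, and 0 of 32 had an unadjusted p under 0.05 (0.387% of all genes). The log2 values ran from -0.19 for *Cdk1* (SE 0.17) to 0.15 for *Cdk6* (SE 0.20), with -0.07 (SE 0.34) for *Ccnb3* and -0.15 (SE 0.20) for *Ccnb2*. All 32 intervals lay within 1 of 0 (87.1% of all genes) and 24 within 0.5 (53.1%). With each extract as a term, which pairs RNA with the footprints of the same extract, the value for *Ccnb3* was -0.05 (SE 0.11), and 31 of 32 intervals lay within 0.5 of 0 (73.8% of all genes). That fit also called 0 of 32 members, and 0 of 32 had an unadjusted p under 0.05, against 2.05% of all genes.

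Footprints were then set against RNA over both genotypes, as footprint counts per coding length over RNA counts per transcript length, with the median gene at 0 on the log2 scale. This fit did not pair the libraries of the same extract. At an adjusted p of 0.05, 21 of 32 members differed from the median gene (70.8% of all genes). With each extract as a term, 25 of 32 members and 10671 of 13385 genes were called. The counts and p-values that follow come from the fit without that term. Of the 21 members, 9 were above the median gene (36.0% of all genes) and 12 were below it (34.7%). More than 1 log2 unit below were 3 members (6.04% of all genes), *Ccnb1*, *Cdk10* and *Cdk8*, and more than 1 above were 6 (12%), *Cdk6*, *Cdk7*, *Cdk1*, *Ccnd2*, *Cdk9* and *Ccnt1*. The lowest, *Ccnb1*, was at -2.28, -2.28 and -2.19 in the *Mael*+/- extracts and -2.05, -2.57 and -2.41 in the *Mael*-/- extracts. Its fitted value was -2.29 (SE 0.09, edgeR adjusted p 2.35e-11), or 0.204 of the ratio of the median gene.

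*Cdk10* (chromosome 8, 123224841 to 123232256), the partner of cyclin M, was at -1.48, -1.70 and -1.63 in *Mael*+/- and -1.57, -1.54 and -1.58 in *Mael*-/-, with CPM of 41.4 to 54.0 in RNA and 16.7 to 19.9 in footprints. *Cdk8* (chromosome 5, 146231250 to 146302874) was at -1.02, -1.04 and -0.91 in *Mael*+/- and -1.08, -1.05 and -0.99 in *Mael*-/-, with CPM of 69.4 to 78.2 in RNA and 28.5 to 33.9 in footprints. The fitted values were -1.59 (SE 0.08) and -1.02 (SE 0.06). For these 3 genes the extracts varied far less than the distance from the median gene, and the genotypes overlapped.

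These 3 genes were also the members with the largest share of coding sequence present elsewhere in the genome. Every run of 30 coding bases, about the length of a footprint, was searched for exact copies on both strands of the GRCm38 chromosomes. Such copies existed for 91.8% of the windows of *Ccnb1*, 55.8% of those of *Cdk10* and 53.6% of those of *Cdk8*. For *Ccnb1* the copies lay at 6 places, among them the pseudogenes *Ccnb1-ps* on chromosome 7, *Gm12856* on chromosome 4 and *Gm8416* on chromosome 14. Those of *Cdk10* lay in *Gm6473* on chromosome 1 and those of *Cdk8* in *Gm7107* on chromosome 14. A read of such a window has several equally good places, and how these reads were counted is not stated. The 3 windows shown here, read from the RefSeq genome sequence, are of this kind, and each is identical in gene and copy.
Ccnb1, chr13:100781684-100781713, minus strand, found at 6 other places: ttgactggctaatacaggttcagatgaaat
Cdk10, chr8:123224927-123224956, plus strand, found at 1 other place: atccgtaaggaaggtttcttcaccgtgcct
Cdk8, chr5:146231693-146231722, plus strand, found at 1 other place: atggactatgactttaaagtgaagctgagc

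Farther along the same coding sequences, gene and pseudogene differ at single bases, and only a read across such a base can tell that pair apart. For *Ccnb1* only *Ccnb1-ps* was compared, and its other copies may match the gene at that base. The pairs shown here, for *Ccnb1* and *Cdk10*, cover the first such window with a difference near its middle, with the differing bases in capitals.
Ccnb1, chr13:100781358-100781387, minus strand: gtgtgcccaagaagatgctAcagctggtcg
Ccnb1-ps, chr7:42106453-42106482, minus strand: gtgtgcccaagaagatgctGcagctggtcg
Cdk10, chr8:123226347-123226376, plus strand: ctgggaagatgcCgaagcgttaaggAgttt
Gm6473, chr1:30769774-30769803, plus strand: ctgggaagatgcTgaagcgttaaggTgttt

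Over the whole transcript, searched in windows of 75 bases for the RNA reads, copies existed for 54.1% of windows of *Ccnb1*, 12.8% of those of *Cdk10* and 19.9% of those of *Cdk8*. These shares differ from the coding ones in both window length and region. When only windows found nowhere else were counted as length, which is what remains if shared reads were discarded, *Ccnb1* moved from -2.29 to 0.19, *Cdk10* from -1.59 to -0.61 and *Cdk8* from -1.02 to -0.23. Only the fitted values of members were shifted in this way. The median gene was not corrected for shared windows, so the shifted values are approximate on that scale. Whether shared windows lowered the footprint counts of these genes was not tested. Values of other members with or without shared windows varied. *Cdk9* had copies for 37.3% of its coding windows and was at 1.22, or 1.75 over windows found nowhere else. *Ccnd3* had copies for 35.9% and was at -0.13, or 0.44 over such windows, whereas *Ccne1*, at -0.97, had none. Of the 34 members, 23 had no coding window elsewhere and 5 had under 10%. The genotypes share this sequence, and the values above were alike in *Mael*+/- and *Mael*-/-.

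**Figure D5:**
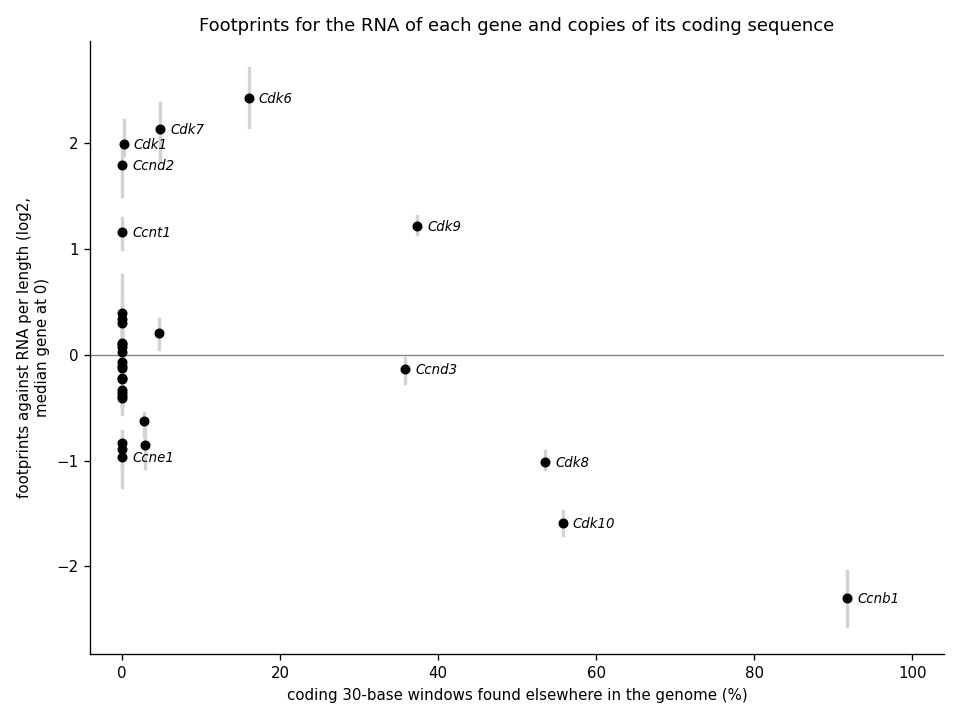
Footprints against RNA per length on the log2 scale, with the median gene at 0, against the percentage of each gene's coding 30-base windows found elsewhere in the genome, with 1 point for each of 32 genes and a grey bar for the range over the 6 extracts. *Ccnb1*, *Cdk10* and *Cdk8* lie farthest right and lowest, while *Cdk9* and *Ccnd3* have 35.9 to 37.3% of windows elsewhere and lie above them.

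The 3 highest members were *Cdk6*, *Cdk7* and *Cdk1*. *Cdk6* was at 2.57, 2.36 and 2.15 in *Mael*+/- and 2.32, 2.70 and 2.46 in *Mael*-/-, with a fitted value of 2.42 (SE 0.10), or 5.37 times the median gene. *Cdk7* (chromosome 13, 100697024 to 100730942), which activates other CDKs, was at 2.38, 1.84 and 2.05 in *Mael*+/- and 2.24, 2.05 and 2.16 in *Mael*-/-, with CPM of 71.1 to 81.7 in RNA and 63.6 to 97.4 in footprints. *Cdk1* was at 2.22, 1.88 and 2.10 in *Mael*+/- and 1.89, 1.90 and 1.90 in *Mael*-/-. All 3 genes overlapped between the genotypes, and their fitted values were 2.13 (SE 0.09) for *Cdk7* and 1.99 (SE 0.09) for *Cdk1*.

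These values rest on the annotated lengths. The annotated exons of *Cdk6* span 11525 bases with 981 coding bases, those of *Cdk7* 7598 with 1041, those of *Ccnd2* 5772 with 870 and those of *Cdk1* 4349 with 894. Without the adjustment for length, *Cdk6* was at -0.18, *Cdk7* at 0.22, *Ccnd2* at 0.02 rather than 1.80, and *Cdk1* at 0.66. With GENCODE lengths in place of RefSeq, *Cdk6*, *Cdk1* and *Ccnd2* were at 2.36, 1.96 and 1.85, but *Cdk7* was at 0.13 and *Cdk9* at 0.23. *Cdk20* went from -0.23 to 0.87, *Ccnt2* from -0.33 to 0.54 and *Cdk12* from 0.21 to -0.18, all with a change of sign. *Cdk13* went from 0.07 to 0.86, *Cdk18* from 0.30 to 0.74 and *Cdk4* from -0.85 to -0.39. The choice of annotation moved the germ cell and mitotic cyclins less. *Ccnb2* was at -0.62 with RefSeq and -0.70 with GENCODE lengths, *Ccna2* at -0.07 and -0.06, and *Ccnb3*, whose coding sequence takes 4191 of its 4554 exon bases, at -0.84 and -0.90. Without the adjustment these genes were at -0.04, -0.53 and -0.00.

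Other genes of the same pathway were taken as lists. No gene of these lists passed an adjusted p of 0.05 in RNA, footprints or translation efficiency in edgeR or in DESeq2. Of 12 other cyclin genes, 1 had an unadjusted p under 0.05 in each assay, against 5.41% of all genes in RNA and 4.33% in footprints. It was *Cntd1*, a cyclin-related protein needed for meiotic crossovers. Its RNA level was 97.5, 24.5 and 26.5 CPM in *Mael*+/- and 16.9, 17.1 and 12.1 CPM in *Mael*-/-, so that extract 1 stood far above all others. The genotypes did not overlap, and 5.67% of all genes were likewise lower without overlap in RNA. The log2 fold change of *Cntd1* was -1.69 (SE 0.47, unadjusted p 0.00523) in RNA and -1.68 (SE 0.44, unadjusted p 0.00291) in footprints. Without extract 1 it was -0.74 in RNA (edgeR adjusted p 0.0352) and -0.79 in footprints (edgeR adjusted p 0.125), and no other gene of the lists was called in either assay. Those fits called 0.397% of all genes in RNA and 0.125% in footprints. The median of the 12 was -0.15 in RNA and -0.17 in footprints, and 7 of 12 were highest in *Mael*+/- extract 1 in each assay, as were 27.8% of all genes in RNA and 26.8% in footprints. Of 8 CDK inhibitors, *Cdkn2b* alone had an unadjusted p under 0.05, at 0.35 in RNA (SE 0.13, p 0.0199) and 0.33 in footprints (SE 0.14, p 0.0399), and the median was 0.06 in RNA and 0.09 in footprints.

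Of 12 CDK activators and inhibitory kinases, 11 were tested in RNA and 10 in footprints. *Pkmyt1*, a kinase that holds *Cdk1* inactive, was at -0.55 in RNA (SE 0.25, unadjusted p 0.0529) and -0.61 in footprints (SE 0.20, unadjusted p 0.0126), or -0.18 and -0.34 without extract 1, and no other gene of the list had an unadjusted p under 0.05. None of the 17 genes of the anaphase-promoting complex, which marks cyclins for destruction, and its regulators reached that limit in either assay, with medians of -0.08 in RNA and -0.06 in footprints. None of 13 pocket protein and E2F genes, which control entry into S phase, reached it either, with medians of -0.03 and -0.00. For comparison, 6 markers of dividing cells summed to 1097 to 1266 CPM in *Mael*+/- RNA and 1171 to 1306 CPM in *Mael*-/- RNA, with 0 of 6 at an unadjusted p under 0.05 in RNA and in footprints.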

How the data were processed

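RNA (6 libraries) and ribosome footprints (6 libraries) of P16 testes were used. The deposited table holds raw counts of reads per gene, whole numbers without normalization. To make these counts, the authors clipped footprint reads, removed ribosomal DNA reads with Bowtie 1.2.2, aligned to mm10 with STAR 2.6.0c and counted with featureCounts (Subread 1.6.4), with RNA reads assigned to whole mRNAs and footprints to coding sequence alone. The annotation release, the strand setting, the handling of reads with several alignments and the collapsing of duplicates are not given in the sources used here, and counting noise may therefore be understated. The deposited result tables hold the authors' DESeq2 1.24.0 log2 fold changes and p-values and were not used, nor were the repeat rows.

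The quasi-likelihood F-test of edgeR 4.0.16 (R 4.3.3) was used throughout. TMM factors were computed within each assay, genes with low counts were removed by filterByExpr, p-values were adjusted by Benjamini-Hochberg over the whole table, and the threshold for a call was an adjusted p of 0.05. RNA and footprints were each fitted over 6 libraries by genotype, and translation efficiency as the interaction of genotype and assay over 12. Footprints against RNA used offsets for RefSeq (GRCm38.p6) exon and coding lengths and were centred on the median gene. For ratios of levels 0.5 was added to each count. Alternatives were DESeq2 1.42.0, median-of-ratios scaling, no filter, an adjusted p of 0.1, a replicate block, leaving out libraries, other lengths, and, added after seeing the data, GENCODE lengths, windows found nowhere else and both libraries of *Mael*+/- extract 1 left out. The tests were tried on simulated counts. Deviations of RNA and footprints of the same extract correlated by 0.81, 0.67 and 0.73 in *Mael*+/- and by 0.27, 0.29 and 0.28 in *Mael*-/- over 11235 genes, above the limit of 0.1 for pairs.

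Values by library are given for germ cell, mitotic and G1 cyclins, for *Cdk1*, *Cdk2*, *Cdk4* and *Cdk6*, for other members at an unadjusted p under 0.05, and for the 3 highest and 3 lowest in footprints per RNA. Pathway genes are named at an unadjusted p under 0.05. The rule for the members uses gene symbols alone, but this gene family and the lists were chosen with earlier results of these data known. Exons of other curated genes overlap those of 0 of 34 members on the same strand and of 7 on the opposite strand. Counts of replicate pairs differed beyond sampling noise, and no libraries were identical.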

Additional observations from a re-analysis of the deposited data

How the results depend on the processing

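The count of members called between genotypes was 0 in both assays under DESeq2, median-of-ratios scaling, no filter and an adjusted p of 0.1, and in RNA it was 1 (*Ccnb3*, log2 fold change 0.62) with the replicate block (0 in footprints). The labels do not say whether *Mael*+/- and *Mael*-/- libraries with the same replicate number share a litter or batch. Their deviations correlated by 0.29, -0.04 and 0.20 over RNA libraries and by 0.09, 0.29 and 0.06 over footprint libraries. Some of these values lie above the limit of 0.1 for pairs and some below, so they do not settle whether the numbers mark pairs. Over all genes the block gave 48 calls rather than 17 in RNA and 22 rather than 8 in footprints, and DESeq2 gave 58 and 21. Leaving out 1 library gave 0 to 1 members in each assay, 1 being *Ccnb3* without *Mael*+/- replicate 1, and 2 to 59 genes in RNA and 2 to 17 in footprints. No alternative called a member for translation efficiency. For footprints against RNA, 20 to 25 members were called. *Ccnb1* (to 0.19) and *Ccnd3* (from -0.13 to 0.44) changed sign when lengths of members, but not of the median gene, were limited to windows found nowhere else. The difference in germ cell to mitotic cyclin ratio in RNA was -0.34 for *Ccna1* to *Ccna2* alone and 0.73 for *Ccnb3* to *Ccnb1* and *Ccnb2*, and 0.08 to 0.39 with 1 extract left out. In footprints it was 0.73 to 0.95. The cause of these shifts was not tested. Depth limits *Ccna1* and *Cdk15*, with at most 30 counts in every library.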
